A study of Mus musculus with 8 samples.

Results

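Potassium channel genes were followed across 6 classes of mouse hippocampal cells. The set was every gene whose symbol begins with Kcn, continues in lower-case letters and ends in a number, which gave 92 of 55367 gene symbols. It holds the pore-forming channel genes and their auxiliary subunits, and the symbols were the same in both libraries. The cells came from the hippocampus of Foxp3-DTR- mice (DTRneg library) and of Foxp3-DTR+ littermates (DTRpos library). All mice received diphtheria toxin, 2 mice were pooled in each library, and cells negative for CD45 and Thy1 were sorted after perfusion, which sets aside immune cells and neurons. In Foxp3-DTR+ mice the diphtheria toxin receptor is carried by Foxp3-expressing regulatory T cells, which the toxin kills, and the study asked what changes in the hippocampus then. Foxp3 had 0 UMIs in the cells of both libraries, so the depletion itself could not be checked here. Dose, time after toxin, age and strain are not given in the sources used here.

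Potassium channels set the resting potential of a cell and let potassium leave it or enter it. Inward rectifiers (Kcnj genes) and two-pore channels (Kcnk genes) are open near rest, voltage-gated channels (Kcna to Kcnd, Kcnh and Kcnq genes among others) open on depolarisation, and calcium- or sodium-activated channels (Kcnma, Kcnn and Kcnt genes) follow ions inside the cell. Auxiliary subunits (Kcnab, Kcne, Kcnip and Kcnmb genes) change the gating or surface level of a channel without forming a pore. In the hippocampus, glia take up the potassium that active neurons release, pericytes and endothelium use channels to set vessel tone, and the choroid plexus moves ions into the cerebrospinal fluid.

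The DTRneg library held 8220 barcodes with 53484704 UMIs and the DTRpos library 6548 barcodes with 35814655 UMIs. After filters, 6863 and 5691 cells remained, with a median of 6003 and 4509 UMIs per cell. Barcodes shared by both libraries numbered 18. Levels are given as counts-per-million (CPM), the UMIs of a gene summed over the cells of a class and scaled to the same total for every class, with exact Poisson 95% intervals in brackets that cover counting error only. Where a pair of values is given, DTRneg comes first. A UMI marks the 3' end of 1 molecule, so no division by gene length was made, but capture can differ between genes. With 1 library per genotype there is no replicate and no test, and a difference between the libraries could equally belong to the animals or the preparation.

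Classes were set by a marker gene. Astrocytes (Aqp4) numbered 647 and 681 cells, oligodendrocyte precursors (Pdgfra) 665 and 812, mature oligodendrocytes (Mog) 3701 and 2569, pericytes (Rgs5) 190 and 155, endothelium (Cldn5) 475 and 350, and choroid plexus (Ttr at 5% or more of UMIs) 203 and 48. A further 928 and 1038 cells passed no gate and 54 and 38 cells passed 2 or more. Counted with no gate was any Pdgfra cell with 2 or more UMIs of Dcn, Lum and Col1a1 together, which mark fibroblasts. In each class its own marker list, which includes the gate gene, exceeded every other cell type list. A list of 7 dissociation-stress genes exceeded the class's own list only in the DTRneg endothelium. The stress genes stood between 12249 and 16892 CPM in pericytes and endothelium and between 213 and 3371 CPM in the other classes. Pericytes were shallow, with medians of 1995 and 1524 UMIs per cell, against 7646 and 6382 in mature oligodendrocytes. The labels call the sorted cells neurons and glia, but 5 neuronal markers together reached 111 CPM at most in any class. The microglial list had 9.46 CPM at most.

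Promoters of a leading channel of each class with an entry in RefSeq are shown to place the 5 patterns beside their sequence (GRCm38.p6, 250 bases before to 50 after the start, read 5' to 3' on the gene's strand). Capitals mark matches, on either strand, to 4 short motifs that do not overlap here. The first is TATAAA, the core element found near many start sites. The second is GGGCGG, called the GC box and bound by factors of the Sp family. The third is CCAAT, which is bound by the factor NF-Y. The fourth is ACAAAG, the core recognised by Sox factors. Kcnk1 (chr8:125994852-125995151, plus strand) led the astrocytes. Kcnmb4 (chr10:116473474-116473773, minus strand) was nearly limited to precursors and Kcnk13 (chr12:99964249-99964548, plus strand) to the oligodendrocyte lineage. Kcnj8 (chr6:142571565-142571864, minus strand) marked pericytes and Kcnj13 (chr1:87394680-87394979, minus strand) the choroid plexus.
Kcnk1: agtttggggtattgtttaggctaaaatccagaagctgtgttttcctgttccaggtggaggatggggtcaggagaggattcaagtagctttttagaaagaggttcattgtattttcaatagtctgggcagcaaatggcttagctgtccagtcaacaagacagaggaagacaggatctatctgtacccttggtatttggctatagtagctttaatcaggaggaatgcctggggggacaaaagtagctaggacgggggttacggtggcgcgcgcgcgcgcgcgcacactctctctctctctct
Kcnmb4: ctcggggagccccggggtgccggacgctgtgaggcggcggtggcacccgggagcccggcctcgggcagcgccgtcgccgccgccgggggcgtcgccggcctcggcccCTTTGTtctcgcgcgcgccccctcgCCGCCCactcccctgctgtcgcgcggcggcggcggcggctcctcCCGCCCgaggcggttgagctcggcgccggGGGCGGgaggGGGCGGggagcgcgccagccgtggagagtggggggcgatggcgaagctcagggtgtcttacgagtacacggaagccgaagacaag
Kcnk13: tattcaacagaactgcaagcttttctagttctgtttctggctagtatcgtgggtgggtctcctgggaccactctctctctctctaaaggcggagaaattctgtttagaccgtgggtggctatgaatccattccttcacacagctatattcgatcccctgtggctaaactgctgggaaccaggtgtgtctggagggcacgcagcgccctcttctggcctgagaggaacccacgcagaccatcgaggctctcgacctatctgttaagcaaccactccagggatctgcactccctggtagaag
Kcnj8: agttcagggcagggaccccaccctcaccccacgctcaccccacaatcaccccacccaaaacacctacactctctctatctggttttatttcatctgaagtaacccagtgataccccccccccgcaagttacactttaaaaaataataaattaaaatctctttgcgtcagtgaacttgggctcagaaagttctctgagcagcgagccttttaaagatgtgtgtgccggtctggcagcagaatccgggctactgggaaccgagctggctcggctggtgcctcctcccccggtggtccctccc
Kcnj13: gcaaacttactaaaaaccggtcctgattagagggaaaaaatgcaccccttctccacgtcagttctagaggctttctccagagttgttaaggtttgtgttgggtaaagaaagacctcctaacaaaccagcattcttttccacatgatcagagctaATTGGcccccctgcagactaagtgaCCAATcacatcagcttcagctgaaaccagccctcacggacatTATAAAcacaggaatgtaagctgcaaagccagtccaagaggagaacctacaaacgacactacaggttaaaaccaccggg
The stretch of the precursor gene Kcnmb4 had 79% G and C with 48 CG pairs, 4 GC box matches and 1 Sox core match. It was placed by the RefSeq start and lies wholly inside the gene as annotated by GENCODE, which begins at 116473878. The other 4 promoters, none of which lies wholly inside its annotated gene, had 46% to 53.3% G and C, 5 to 10 CG pairs and no GC box match. Kcnj13 was the only one of the 5 with TATAAA and also had 2 CCAAT matches. RefSeq entries were found for 67 of the 92 genes, with 92 promoters in all. GGGCGG stood in 47.8% of these 92 promoters and in 35.7% of all 32851 mouse promoters of the same length. TATAAA stood in 5.43% against 13.6%, CCAAT in 30.4% against 37.4% and ACAAAG in 15.2% against 18.7%. These are matches of letters, and no factor binding was measured.

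Channel genes ranged from no UMI to levels that marked a class. No UMI was found in the cells of either library for 8 genes (Kcne3, Kcng3, Kcnj1, Kcnk15, Kcnk16, Kcnk18, Kcns2 and Kcnv2). Another 30 had UMIs but under 20 in at least 1 library, and 54 had 20 or more in each. Of the 92 genes, 46 reached 20 UMIs within the same class in both libraries, and for 42 of these 46 the class with the highest level was the same in both libraries. A gene was called class-specific when its level in 1 class was at least 3 times that of the next of the 6 classes in both libraries, with at least 20 UMIs there in each. This held for 29 genes, and the heat map of channel genes by class shows most of them. The share of all genes with enough UMIs that passed the same rule is given beside each class. The count of 20 UMIs lets a gene pass through the class where it is high, so these shares describe the genes that passed and not all 92. A class with few UMIs can miss a low gene: 3 UMIs were worth 7.32 and 11.5 CPM in pericytes and 3.39 and 14.5 CPM in choroid plexus. The count is therefore also given with every class taken at no less than its level of 3 UMIs, a setting added after seeing the data. Just inside the 3-fold line were Kcna6 in oligodendrocytes (3.03-fold and 3.33-fold) and Kcnma1 in precursors (3.02-fold and 3.11-fold). Just outside it were Kcnab1 in precursors (3.46-fold and 2.40-fold) and Kcnt1 in astrocytes (2.04-fold and 3.12-fold).

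**Figure D1:**
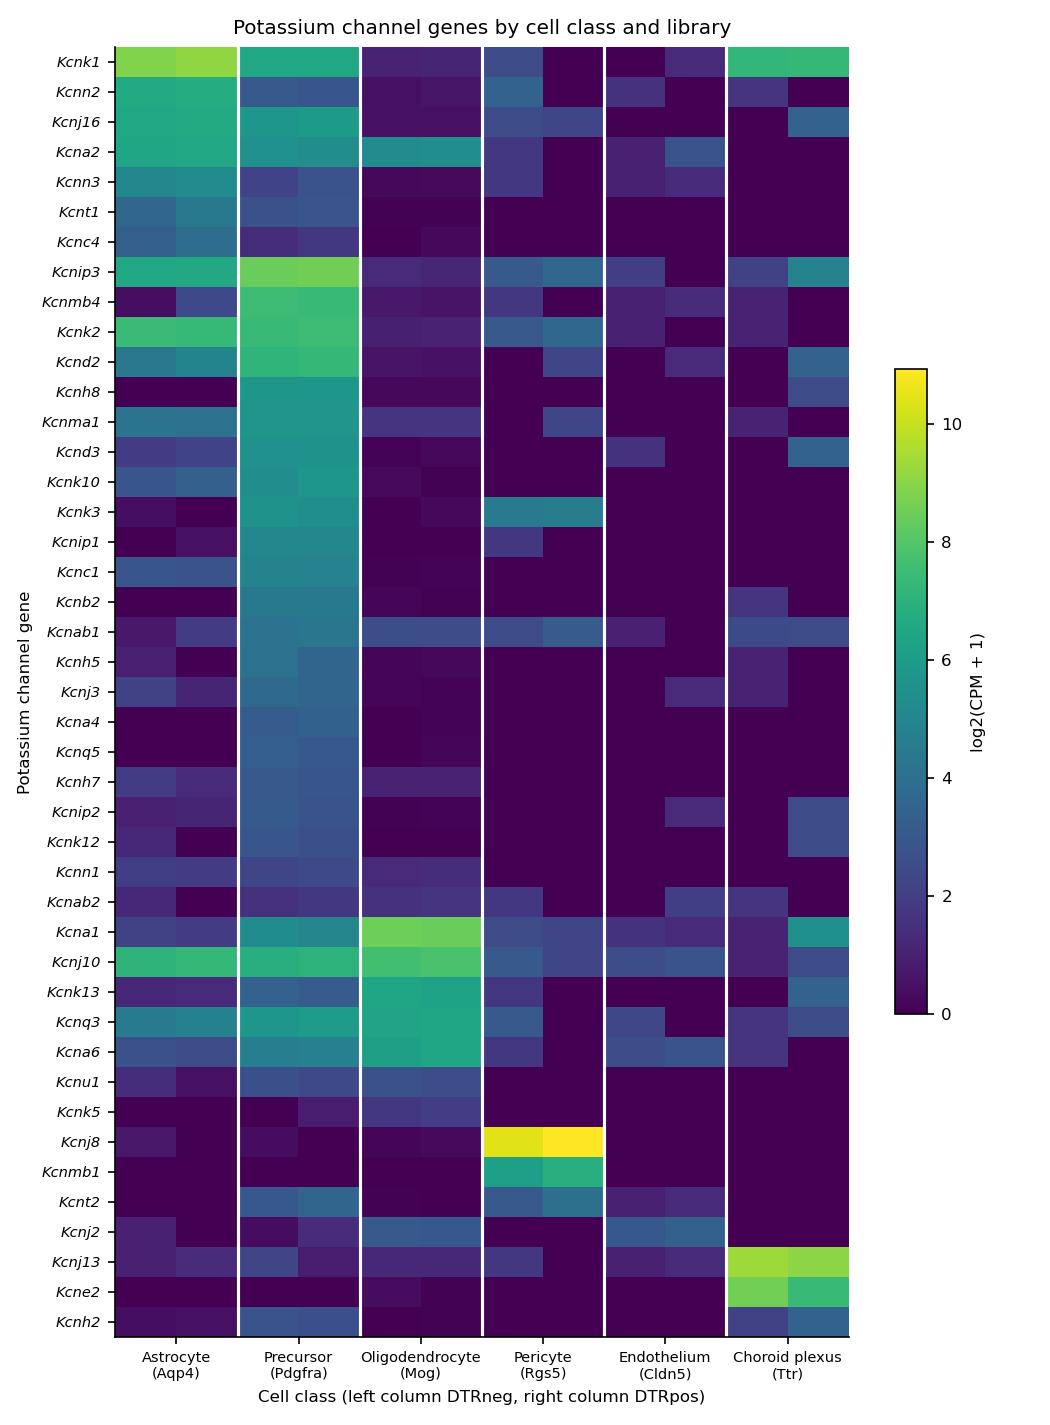
Levels of 43 of the 46 channel genes with at least 20 UMIs in a class in both libraries, as log2(CPM + 1) (colour), by gene (rows) and by class and library (columns, DTRneg left and DTRpos right in each pair). Precursors hold the longest run of raised genes, Kcnj8 in pericytes is the brightest pair at 1370 and 1952 CPM, and the endothelium has no bright row.

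The classes differed in which channel families they carried. Summed over all 92 genes, channel transcripts made up 1346 and 1494 CPM in astrocytes, 1860 and 1956 CPM in precursors, 887 and 901 CPM in mature oligodendrocytes, 1704 and 2321 CPM in pericytes, and 1217.5 and 1021 CPM in the choroid plexus. The endothelium had 52.7 and 71.9 CPM, the lowest sum. Two-pore channels gave the largest family sum in astrocytes (653 and 716 CPM), voltage-gated channels in mature oligodendrocytes (567 and 563 CPM), and inward rectifiers in pericytes (1441 and 2013 CPM) and choroid plexus (643 and 542 CPM). Precursors carried voltage-gated channels (624 and 649 CPM) and auxiliary subunits (592 and 616 CPM) at like sums. Class-specific were 14 of 40 voltage-gated genes, 5 of 15 auxiliary, 4 of 14 two-pore, 3 of 15 inward rectifier and 3 of 8 ion-activated genes. Over all families these were 29 of 92.

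Astrocytes were led by Kcnk1, which encodes the two-pore channel TWIK-1. Kcnk1 stood at 466 CPM (441 to 491) in the DTRneg library and 546.5 CPM (518 to 576) in the DTRpos library. It was present in 74% and 74.2% of astrocytes, against 0.946% and 0.934% of mature oligodendrocytes. After every cell was thinned to 2000 UMIs, which left out 65 and 61 astrocytes, those shares were 53.4% and 60.8% in astrocytes and 0.246% and 0.241% in oligodendrocytes. The next class for Kcnk1 was the choroid plexus at 148 and 155 CPM, a gap of 3.15-fold (2.63 to 3.8) and 3.53-fold (2.49 to 5.18). With Ttr, the gate gene of the choroid class, left out of all totals, a setting added after seeing the data, choroid Kcnk1 stood at 224 and 213 CPM, the gap was 2.08-fold (1.74 to 2.51) and 2.56-fold (1.81 to 3.76), and Kcnk1 did not pass. It also no longer passed at 5-fold, with a stricter filter on genes per cell, with classes taken from clusters or after thinning.

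Kcnn2 and Kcnn3, which encode the small-conductance calcium-activated channels SK2 and SK3, were also class-specific in astrocytes. Kcnn2 stood at 101 CPM (89.9 to 113) and 109.5 CPM (97.0 to 123) in astrocytes and at 7.25 and 6.71 CPM in precursors. Kcnn3 stood at 31.7 CPM (25.5 to 38.8) and 37.4 CPM (30.3 to 45.8) in astrocytes and at 3.62 and 5.90 CPM in precursors. The intervals of astrocytes and precursors did not overlap for either gene in either library. The voltage-gated Kcnc4 passed with few UMIs, 26 and 36, at 8.95 and 14.2 CPM, and did not pass after thinning or with 3 or more Aqp4 UMIs. In all, 4 of the 14 channel genes with 20 UMIs in astrocytes in each library were class-specific, where 3.64% of all genes were. With every class at no less than 3 UMIs these were 2 of 14 (Kcnk1 and Kcnn2), where 2.31% of all genes were.

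Other strong astrocyte channels were shared with cells of the oligodendrocyte lineage. Kcnk2, the mechanosensitive two-pore channel TREK-1, stood at 176 CPM (161 to 192) and 158 CPM (142.5 to 174) in astrocytes and at 169 CPM (156 to 183) and 180 CPM (167 to 194) in precursors. The order of these 2 classes turned between the libraries, and their intervals overlapped in both. Astrocytes stood 1.04-fold (0.926 to 1.18) above precursors in the DTRneg library. Precursors stood 1.14-fold (1.008 to 1.296) above astrocytes in the DTRpos library. In mature oligodendrocytes Kcnk2 was at 0.938 and 1.15 CPM. Kcna2, a Kv1 delayed rectifier, was highest in astrocytes at 84 and 94.2 CPM, then precursors at 44.6 and 41.3 CPM and mature oligodendrocytes at 37.8 and 40.3 CPM. Precursors and oligodendrocytes did not differ beyond their intervals for Kcna2. Kcnt1, a sodium-activated channel, stood at 11.4 and 20.1 CPM in astrocytes and 5.57 and 6.44 CPM in precursors.

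Precursors carried the widest set of channels, most of them genes best known from neurons. Here 17 of the 35 channel genes with 20 UMIs in each library were class-specific, where 6.84% of all genes were. With every class at no less than 3 UMIs these were 9 of 35, where 3.06% of all genes were. Kcna4, Kcnb2, Kcnc1, Kcnh5, Kcnip1, Kcnj3 and Kcnq5 were among those that no longer passed. The 17 included 11 voltage-gated genes (Kcna4, Kcnb2, Kcnc1, Kcnd2, Kcnd3, Kcnh5, Kcnh8 and Kcnq5 among them) and the auxiliary subunits Kcnip1, Kcnip3 and Kcnmb4. The rest were Kcnj3, a G-protein-gated inward rectifier, Kcnk10, the two-pore channel TREK-2, and Kcnma1, the large-conductance calcium-activated BK channel. The neuronal marker list stood at 111 and 100 CPM in precursors, above its level in every other class, and the haemoglobin list at 3246 CPM in the DTRneg and 32.2 CPM in the DTRpos library. Their part in the precursor levels was not tested.

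The most abundant channel transcript of precursors was an auxiliary subunit. Kcnip3, which encodes a calcium-binding protein of Kv4 channels that also acts as the transcriptional repressor DREAM, stood at 343 CPM (324 to 363) and 377 CPM (357 to 397). Its level in astrocytes was 92.6 and 96.1 CPM, so precursors stood 3.71-fold (3.25 to 4.24) and 3.92-fold (3.42 to 4.51) above them. Kcnmb4, the brain BK channel subunit whose sequence is shown above, stood at 180 CPM (167 to 195) and 171 CPM (158 to 185). In astrocytes Kcnmb4 had 1 UMI in the DTRneg and 11 UMIs in the DTRpos library, at 0.344 and 4.33 CPM. In mature oligodendrocytes it stood at 0.662 and 0.485 CPM.

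The Kv4 pore genes Kcnd2 and Kcnd3 were also class-specific in precursors, while Kcnd1 was not, at 0.836 and 4.83 CPM in precursors and 2.41 and 2.36 CPM in astrocytes. Kcnd2 stood at 140 CPM (128 to 153) and 155 CPM (143 to 168.5) in precursors, against 19.6 and 29.2 CPM in astrocytes and 0.497 and 0.441 CPM in oligodendrocytes. Kcnd3 stood at 45.4 and 48.3 CPM in precursors, against 2.75 and 3.55 CPM in astrocytes. A Kcnd2 UMI was found in 48.9% and 48.2% of precursors and in 0.432% and 0.389% of mature oligodendrocytes. After thinning to 2000 UMIs these shares were 23.1% and 26.9% in precursors and 0.137% and 0.0401% in oligodendrocytes. Kcnh8, an Elk-type voltage-gated channel, stood at 54.3 and 52.9 CPM in precursors and had no UMI in astrocytes, where 3 UMIs would give 1.03 and 1.18 CPM. Kcna4 stood at 8.08 and 9.39 CPM in precursors, Kcnq5 at 8.64 and 6.98 CPM, and Kcnk10 at 40.1 and 52.05 CPM.

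Mature oligodendrocytes carried a short list of channels at high depth. Kcna1, the Kv1.1 channel of axons and myelinating cells, stood at 367 CPM (361 to 373) and 343 CPM (335 to 351). Precursors had 37.9 CPM (31.8 to 44.8) and 30.05 CPM (24.7 to 36.15) of Kcna1, and astrocytes 3.44 and 2.76 CPM. A Kcna1 UMI was found in 81.4% and 76.6% of oligodendrocytes and in 1.39% and 1.03% of astrocytes, which had medians of 4434 and 3604 UMIs per cell. After thinning these shares were 47% and 43.6% in oligodendrocytes and 0.515% and 0.484% in astrocytes. Kcna6, the Kv1.6 channel, stood at 73.4 and 86.8 CPM, which was 3.03-fold (2.45 to 3.79) and 3.33-fold (2.72 to 4.13) above precursors and close to the 3-fold line.

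The two-pore channel Kcnk13 (THIK-1) was the other marked channel of mature oligodendrocytes. Kcnk13 stood at 87.8 CPM (84.8 to 90.9) and 79.4 CPM (75.8 to 83.2) there and at 9.75 and 8.05 CPM in precursors. Kcnk13 is often described as a channel of microglia, and the microglial list stood at 0.442 and 0.793 CPM in these oligodendrocytes. Kcnk5 (TASK-2) met the rule at a very low level of 2.46 and 2.95 CPM, seen because this class held 36236485 and 22696206 UMIs. In pericytes, endothelium and choroid plexus 3 UMIs are worth more than that, so a 3-fold gap over them was not shown for Kcnk5. With Kcna1 and Kcna6 these made 4 of 20 genes with enough UMIs class-specific, where 4.06% of all genes were. With every class at no less than 3 UMIs these were 3 of 20, without Kcnk5, where 2.36% of all genes were. Kcnq3, an M-current subunit, was highest in oligodendrocytes at 81.6 and 85.4 CPM but only 1.57-fold and 1.35-fold above precursors.

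The inward rectifier Kcnj10 (Kir4.1), the main potassium uptake channel of glia, was not limited to astrocytes. Mature oligodendrocytes had the highest level, 198 CPM (193 to 202) and 223 CPM (217 to 229). Astrocytes followed at 138 CPM (125 to 152) and 156 CPM (141 to 172) and precursors at 116 CPM (105 to 128) and 135 CPM (123 to 147). Oligodendrocytes stood above both other glial classes beyond the counting intervals in both libraries. The intervals of astrocytes and precursors overlapped, which does not show their levels to be equal. Kcnj10 was at 7.32 CPM or below in pericytes, endothelium and choroid plexus.

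**Figure D2:**
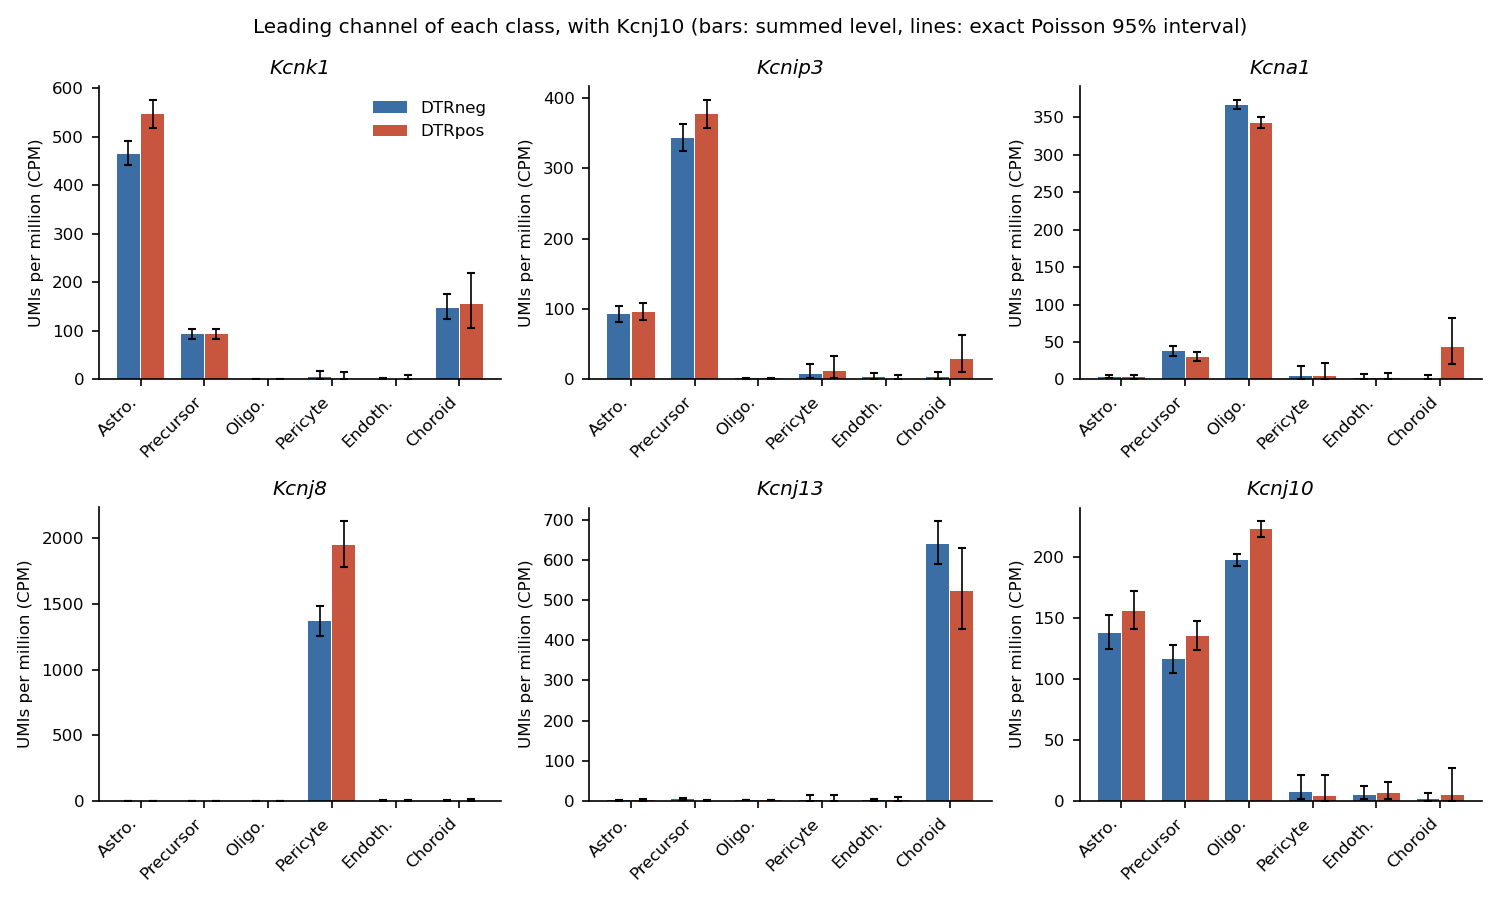
Levels in CPM (vertical axis, linear from 0, one scale per panel) of 6 channel genes in the 6 classes (horizontal axis), with bars for DTRneg and DTRpos and lines for the exact Poisson 95% interval. Each of 5 genes peaks in a different class, while Kcnj10 is shared by the 3 glial classes at 116 to 223 CPM.

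Its partner Kcnj16 (Kir5.1), which forms mixed channels with Kir4.1, separated these classes. Kcnj16 stood at 90.9 and 101 CPM in astrocytes and 52.1 and 61.2 CPM in precursors, but at 0.414 and 0.397 CPM in mature oligodendrocytes. Of the UMIs of both genes, Kcnj16 made 39.7% (36.0 to 43.5) and 39.4% (35.6 to 43.2) in astrocytes and 31% (27.3 to 34.9) and 31.2% (27.8 to 34.7) in precursors. In oligodendrocytes the share was 0.209% (0.117 to 0.345) and 0.178% (0.0812 to 0.337), or 15 of 7173 and 9 of 5068 UMIs. These shares do not depend on library size, and each was nearly the same in both libraries.

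The Kv1 genes showed a similar exchange. Of the UMIs of Kcna1, Kcna2 and Kcna6, astrocytes had 90.4% and 92.6% from Kcna2, precursors 41.8% and 42.4%, and mature oligodendrocytes 7.9% and 8.58%. Kcna1 made 3.7% and 2.71% in astrocytes, 35.5% and 30.9% in precursors and 76.8% and 73% in oligodendrocytes. The intervals of the 3 classes did not overlap in either library for Kcna1 or for Kcna2. Between the two-pore genes Kcnk1 and Kcnk2, Kcnk1 made 72.5% and 77.6% of UMIs in astrocytes and 35.6% and 34.2% in precursors. In the choroid plexus 131 of 132 and 32 of 32 of these UMIs were Kcnk1.

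**Figure D3:**
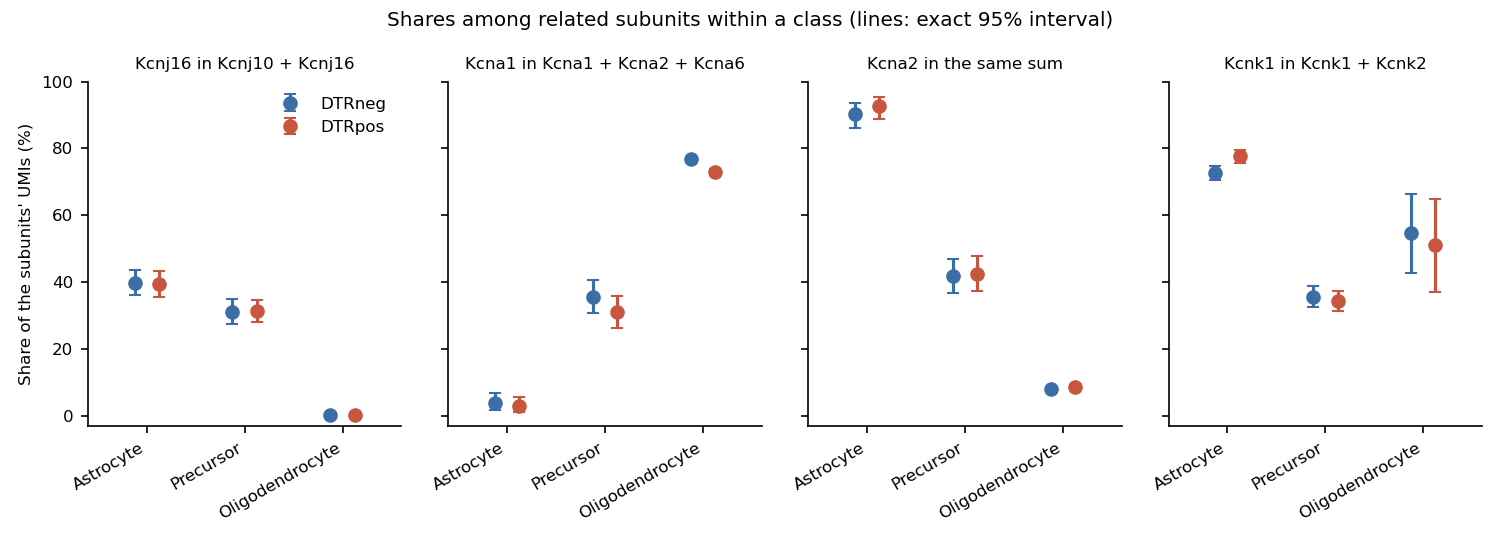
Share of UMIs (vertical axis, percent) that a subunit takes within a set of related genes, by glial class (horizontal axis) and library (colour), with exact 95% intervals. Kcnj16 takes 39.7% and 39.4% in astrocytes and 0.209% and 0.178% in oligodendrocytes, and Kcna1 and Kcna2 exchange places between these 2 classes.

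Pericytes had the most abundant channel transcript of any class. Kcnj8 encodes Kir6.1, the pore of the vascular ATP-sensitive channel. It stood at 1370 CPM (1259 to 1489) and 1952 CPM (1786 to 2129) in pericytes. It had no UMI in endothelium, where 3 UMIs would give 3.04 and 4.59 CPM, and at most 0.688 CPM in the 3 glial classes. A Kcnj8 UMI was found in 83.2% and 82.6% of pericytes, at medians of 1995 and 1524 UMIs per cell, and in 0.108% and 0.156% of mature oligodendrocytes. After thinning these shares were 77.7% and 93.5% of pericytes and 0% of oligodendrocytes in both libraries. Its regulatory partner Abcc9 (SUR2), no channel gene by symbol, stood at 1039 and 1232 CPM in pericytes and at 1.01 CPM or below in all other classes.

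Kcnmb1, the BK channel subunit of smooth muscle, was the second pericyte channel. It stood at 70.7 CPM (47.4 to 102) and 115 CPM (77.9 to 165) from 29 and 30 UMIs, and the other 5 classes together held 1 UMI. The BK pore gene Kcnma1 had 0 and 1 UMIs in pericytes, where 3 UMIs would give 7.32 and 11.5 CPM. Kcnj8 and Kcnmb1 were both of the 2 channel genes with 20 UMIs in pericytes in each library, and both were class-specific, where 8.52% of all genes were. Kcnmb1 did not pass after thinning, which left 94 and 31 pericytes, or with a stricter filter on genes per cell. Kcne4, an auxiliary subunit of Kv channels, had 20 and 19 UMIs (48.8 and 73.1 CPM), and Kcnj12 (Kir2.2) 23 and 14 UMIs (56.1 and 53.9 CPM), just under the count needed. The smooth muscle list was at 736 and 146 CPM in this class, and its part in these levels was not tested.

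The endothelium showed almost no channel transcripts at this depth. All 92 genes together gave 52 and 47 UMIs in 475 and 350 cells. None of the channel genes had 20 UMIs in each library, so 0 of 0 could be called, where 8.06% of all genes with enough UMIs were class-specific. With 20 UMIs worth 20.3 and 30.6 CPM in this class, a channel at the level of Kcnh5 in precursors (16.2 and 10.7 CPM) would not have been counted. Kcnj2 (Kir2.1), the inward rectifier best known in capillary endothelium, had 7 and 6 UMIs at 7.09 CPM (2.85 to 14.6) and 9.18 CPM (3.37 to 19.99). Its level in mature oligodendrocytes was 7.37 and 7.14 CPM, within those intervals, so the 2 classes were not distinguishable.

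The choroid plexus carried channels of ion-secreting epithelium. Kcnj13 (Kir7.1), an inward rectifier of epithelia, stood at 641 CPM (589 to 696) and 523 CPM (429 to 631). In the 5 other classes Kcnj13 was at 3.90 CPM or below. Kcne2, an auxiliary subunit that pairs with Kcnq1 in this epithelium, stood at 388 CPM (348 to 431) and 169 CPM (118 to 235.5) and was at 0.304 CPM or below elsewhere. Kcnq1 itself had no UMI in choroid cells, where 3 UMIs would give 3.39 and 14.5 CPM, so a level below that was not detectable. Kcne1, which lies 47.9 kb from Kcne2 on chromosome 16, had no UMI in any of the 6 classes. Kcnj13 and Kcne2 were 2 of 3 genes with enough UMIs that were class-specific, where 7.92% of all genes were, and Kcnk1 was the third gene. Ttr alone took 339078 and 273472 CPM here, which lowers the CPM of every other gene of the class.

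Subunits known to build a channel together were class-specific together in some cases and not in others. In precursors Kcnd2, Kcnd3, Kcnip1, Kcnip3, Dpp6 (383.5 and 479 CPM) and Dpp10 (56.9 and 57.4 CPM), all of Kv4 channels, were class-specific. Kcnd1, Kcnip2 and Kcnip4 were not class-specific anywhere. Kcnip2 was still highest in precursors, at 7.52 and 6.17 CPM, and 7.29-fold above the next class in the DTRneg library. In the DTRpos library it was 1.28-fold (0.207 to 52.5) above the choroid plexus, where 1 UMI gave 4.84 CPM. Kcnip4 was also highest in precursors, from 17 and 9 UMIs. Kcnj10 and Kcnj16 were not class-specific either. BK channels had the pore gene Kcnma1 at 51 and 51.5 CPM and Kcnmb4 in precursors, while Kcnmb1 stood in pericytes, where Kcnma1 had 0 and 1 UMIs. Kcnj8 and Abcc9 met in pericytes, and Abcc8, the other sulfonylurea receptor, had no UMI in any class. Of the list of 28 partner and potassium transport genes, 2 of 10 with enough UMIs were class-specific in astrocytes (the connexins Gja1 and Gjb6), where 3.64% of all genes were, and 3 of 12 in precursors (Dpp6 and Dpp10 among them), where 6.84% were. In oligodendrocytes these were 3 of 12 (Hcn2, Atp1b3 and Kcnrg; 4.06% of all genes) and in pericytes 1 of 5 (Abcc9; 8.52%). In endothelium they were 0 of 4 (8.06%) and in choroid plexus 0 of 3 (7.92%). Gja1 was also used to check the astrocyte class.

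**Figure D4:**
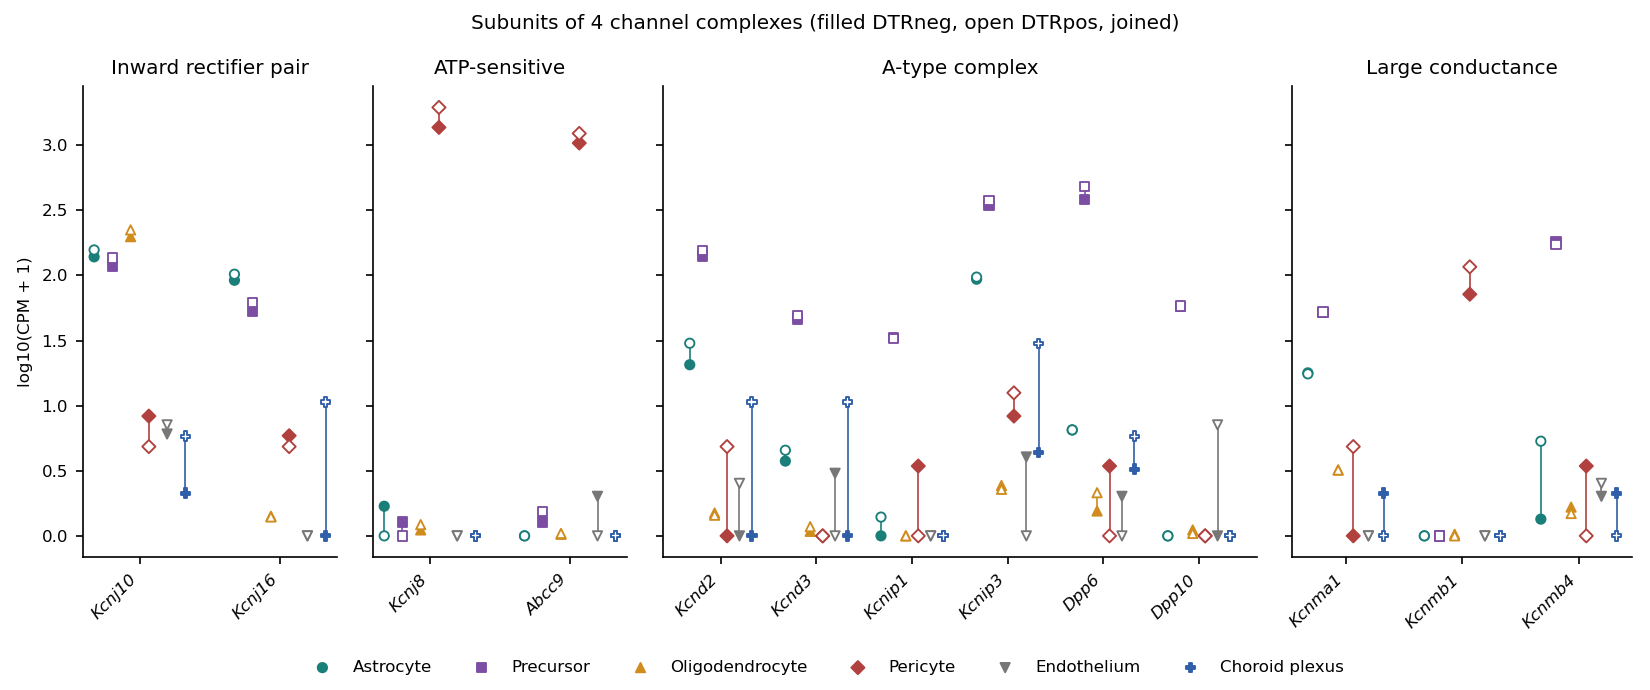
Levels as log10(CPM + 1) (vertical axis) of the subunits of 4 channel complexes (horizontal axis), by class (symbol) and library (filled DTRneg, open DTRpos, joined by a line). Kcnj8 and Abcc9 are high in pericytes alone, the 6 genes of the A-type complex peak in precursors, and Kcnmb1 and Kcnmb4 peak in different classes.

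Position in the genome did not follow a single rule (GRCm38, GENCODE annotation of that build). Among channel and partner genes, 16 pairs lay within 100 kb of each other. In 9 of these both were channel genes, and in 1 of the 9 both were class-specific in the same class. Kcnj8 (chromosome 6, 142564837 to 142571614) and Abcc9 (142587862 to 142702315) lay 16.2 kb apart on the same strand, and both were pericyte genes. Kcna1 (126640397 to 126646384) and Kcna6 (126708329 to 126740674), also on chromosome 6, lay 61.9 kb apart, and both were oligodendrocyte genes. By contrast Kcnj16 and Kcnj2 lay 38.2 kb apart on chromosome 11, and the first was found in astrocytes and precursors and the second in oligodendrocytes and endothelium. Kcnmb1 lies inside Kcnip1 on the opposite strand, and reads of a gene and its antisense partner can be told apart only by strand. Kcnmb1 had 0 UMIs in precursors, where Kcnip1 had 116 and 119, and Kcnip1 had 1 and 0 UMIs in pericytes. Kcnj13 lies inside Gigyf2 on the opposite strand, and Gigyf2 stood at 14.7 and 33.9 CPM in choroid cells and at 11.5 to 75.5 CPM in the other classes.

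Levels also varied inside classes, with cases in astrocytes. Astrocytes with 2 or more UMIs of Agt (225 and 230 cells), which marks astrocytes of some brain regions more than others, were set beside those with none (282 and 303 cells). Kcnk1 was lower in the Agt group, at 391 and 449 CPM against 528 and 606 CPM, a log2 difference of -0.43 (-0.61 to -0.25) in the DTRneg and -0.43 (-0.62 to -0.25) in the DTRpos library. Kcnj16 was higher in the Agt group, by 0.75 (0.34 to 1.18) and 0.48 (0.06 to 0.90). Kcnj10 was higher by 0.70 (0.37 to 1.03) in the DTRneg library but not in the DTRpos library, at -0.14 (-0.47 to 0.19). These intervals cover counting error only. In both libraries the Agt group held more UMIs per cell than the cells with none, and depth was not matched.

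Inside the oligodendrocyte lineage the main channels moved little among Mog cells. Oligodendrocytes with 2 or more UMIs of Klk6 (139 and 97 cells) had Kcna1 at 348 and 329 CPM, against 367 and 341 CPM in those with none. Kcna2 was lower in the Klk6 group, with log2 differences of -0.62 (-1.02 to -0.24) and -0.40 (-0.83 to -0.0004). The Klk6 group held more UMIs per cell than the cells with none, and depth was not matched. Cells with 2 or more UMIs of Bmp4 and Enpp6 together, markers of newly committed cells, numbered 936 and 535, of which 833 and 477 were also in the Mog class. These cells also held more UMIs per cell than the whole Mog class. They had Kcna1 at 355 and 352 CPM, Kcnk13 at 84.0 and 77.1 CPM and Kcnip3 at 5.77 and 5.59 CPM, while mature cells had Kcnip3 at 1.44 and 1.28 CPM and precursors at 343 and 377 CPM. A group defined after seeing the data was the 70 and 33 such cells with fewer than 2 Mog UMIs and fewer than 2 Pdgfra UMIs. It had Kcnk13 at 0 UMIs in both libraries and Kcna1 at 21.4 and 67.4 CPM from 9 and 10 UMIs. In this group 0 UMIs had upper limits of 8.77 and 24.9 CPM, and precursors had Kcnk13 at 9.75 and 8.05 CPM. A level of Kcnk13 below that of precursors was therefore not shown.

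Within classes, 1 channel gene was past 2-fold between the DTRpos and DTRneg libraries. A gene was past the fold at 2-fold or more with at least 50 UMIs over both libraries. This held for 0 of 14 channel genes in astrocytes (0.823% of all genes), 0 of 32 in precursors (0.82%), 0 of 20 in oligodendrocytes (1.15%) and 0 of 2 in pericytes (2.18%). In endothelium 0 of 0 could be counted (1.24%), and in choroid plexus 1 of 3 was past the fold (7.07%). The median log2 ratio of channel genes was 0.20 in astrocytes, 0.0071 in precursors and 0.063 in oligodendrocytes, against 0.035, 0.045 and 0.076 over all genes of those classes.

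In mature oligodendrocytes, the deepest class, counting error allowed small differences to be seen. Kcna1 had a log2 ratio of DTRpos over DTRneg of -0.10 (-0.14 to -0.06), Kcnk13 of -0.15 (-0.23 to -0.06), Kcna6 of 0.24 (0.16 to 0.33) and Kcnj10 of 0.17 (0.12 to 0.23). Over the 20 genes the ratios ran from -0.27 to 0.29, or 1.22-fold at most. In astrocytes Kcnk1 was at 0.23 (0.12 to 0.34) and the range over 14 genes was -0.16 to 0.82, with Kcnt1 highest on 33 and 51 UMIs. In precursors the 32 genes ran from -0.59 (Kcnh5) to 0.62 (Kcnt2), with 16 above and 16 below 0. Relative to the class median, Kcna1 in oligodendrocytes was at -0.17 and Kcnj10 at 0.10. No replicate library shows how far a pair of libraries of 1 genotype would differ.

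In pericytes Kcnj8 was higher in the DTRpos library beyond counting error, while the interval of Kcnmb1 included 0. Kcnj8 had a log2 ratio of 0.51 (0.33 to 0.69) and Kcnmb1 of 0.71 (-0.08 to 1.496), while Abcc9 was at 0.25 (0.03 to 0.46). Other lists moved in the same pericytes. The smooth muscle list stood at 736 CPM in the DTRneg and 146 CPM in the DTRpos library, the astrocyte list at 817 and 219 CPM, and the choroid list at 137 and 23.1 CPM. The neural stem cell list stood at 232 and 104 CPM, the neuroblast list at 24.4 and 135 CPM and the haemoglobin list at 14.6 and 53.9 CPM. The part of these lists in the Kcnj8 difference was not tested. In the 172 and 149 Rgs5 cells with no Acta2 UMI the Kcnj8 ratio was 0.44 (0.26 to 0.62), at 1477 and 2005 CPM. They are most of the 190 and 155 pericytes. At this depth 0 UMIs does not show a cell to be free of smooth muscle RNA. Over the alternatives Kcnj8 stayed between 0.34 and 0.58.

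Kcne2 in the choroid plexus was the single channel past 2-fold, with 344 and 35 UMIs. Its log2 ratio was -1.20 (-1.74 to -0.69), or -1.30 relative to the class median of 0.11 over all genes. Kcnj13 was at -0.29 (-0.61 to 0.0045) and Kcnk1 at 0.07 (-0.54 to 0.63) in the same cells. The DTRpos choroid class held 48 cells and more RNA of other classes: the oligodendrocyte list stood at 331 CPM in the DTRneg and 2071 CPM in the DTRpos library, and the astrocyte list at 53.0 and 372.5 CPM. Kcna1 had 1 and 9 UMIs there. Their part in the Kcne2 difference was not tested. Without choroid cells that passed another marker gate, a setting added after seeing the data, the ratio was -1.16. With Ttr left out of all totals the ratio was -1.33. Over the alternatives Kcne2 ran from -1.33 to -1.0005, so at its weakest it lay almost on the 2-fold line. None of the partner genes with enough UMIs was past 2-fold in astrocytes, precursors, oligodendrocytes, pericytes or endothelium.

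**Figure D5:**
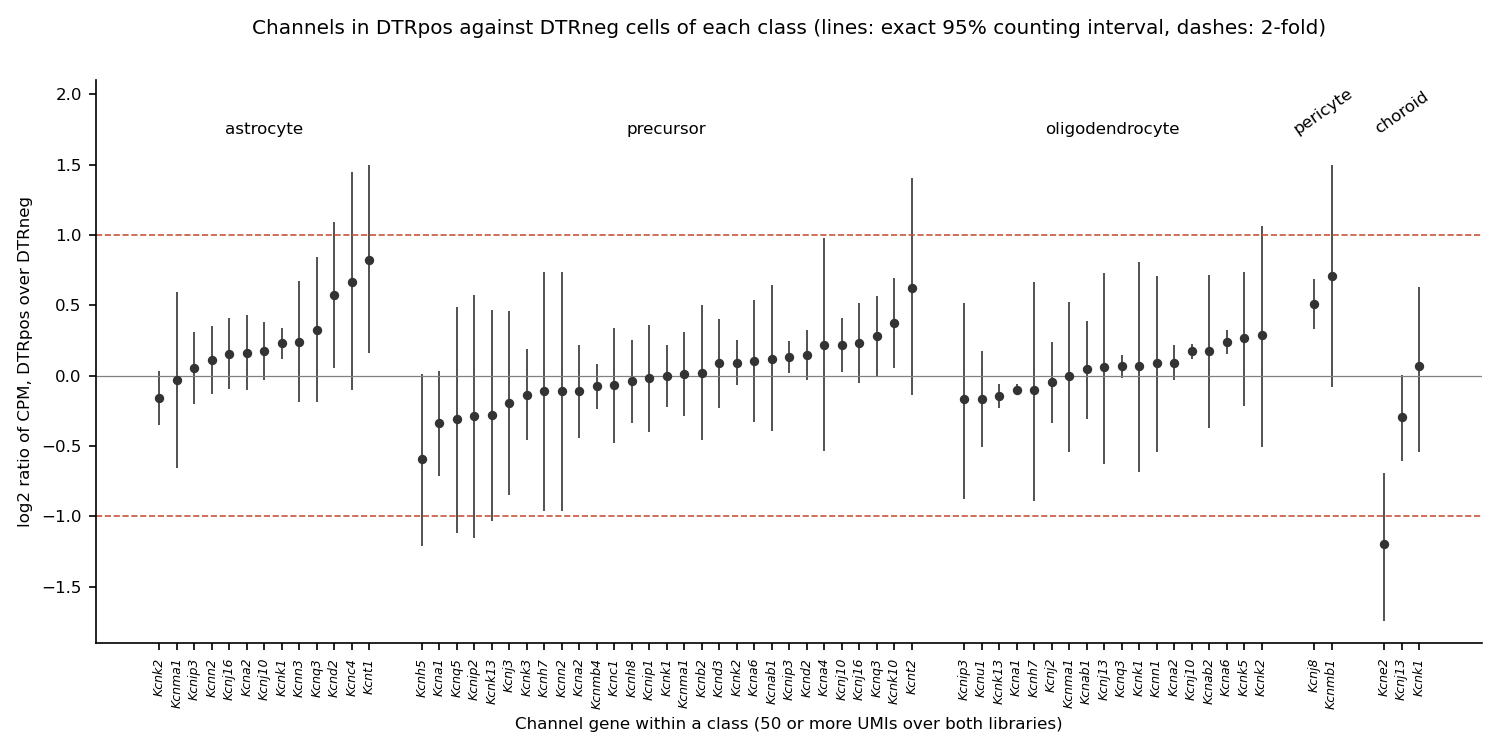
Log2 ratio of CPM, DTRpos over DTRneg (vertical axis), for channel genes with 50 or more UMIs over both libraries (horizontal axis, grouped by class), with exact 95% counting intervals and dashed lines at 2-fold. All points lie between the dashed lines except Kcne2 in the choroid plexus at -1.20.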

How the data were processed

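Cells were captured with a droplet 3' kit, and the deposited matrices hold UMI counts per gene and cell, made by the authors with Cell Ranger 6.1.0 per the file headers. The mm10 genome and Seurat are named per the submitters' processing notes. No count had been normalized. The members and lists were chosen with earlier results of these data known.

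Cells with at least 500 genes and under 15% mitochondrial UMIs were kept (7105 and 5849), and 242 and 158 called doublets were removed. A class needed 2 UMIs of exactly 1 marker among Aqp4, Pdgfra, Mog, Rgs5 and Cldn5, or Ttr at 5% of UMIs. A Pdgfra cell with 2 or more UMIs of Dcn, Lum and Col1a1 together was not taken as a precursor and was counted with no gate. Raw counts were summed per class and library. Ratios have exact conditional binomial intervals and shares exact Clopper-Pearson intervals, all at 95%, and no test was possible with 1 library per genotype. Clusters (2000 variable genes, 30 components, 15 neighbours, resolution 1) served as an alternative. Calls were tested on simulated data.

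Named genes are class-specific members, members past the fold, the 3 most abundant in each class and a panel of known channels. Genes given as examples beyond these (Kcnt1, Kcnt2, Kcnj12, Kcnq1, Kcnh7, Kcnd1, Kcnip2 and Kcnip4) were chosen after their values were seen. Python 3.11.15, scanpy 1.11.5, numpy 2.4.6, scipy 1.17.1 and pandas 2.3.3 were used. Alternatives covered the marker gates, filters, fold and count minimums, thinning, weighting of cells, centring, Ttr in the totals and a floor of 3 UMIs per class. Values of some genes are not reported here, though counts over all members include them.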

Additional observations from a re-analysis of the deposited data

Results flagged for a closer look

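Kcnh7, a voltage-gated channel gene of the Erg type, stood out in the cells that passed no marker gate and so entered no comparison. It had 16.4 CPM (12.5 to 21.1) from 60 UMIs in the DTRneg library and 14.3 CPM (10.5 to 19.1) from 46 UMIs in the DTRpos library. Among the 6 classes its highest level was in precursors, at 7.25 and 6.71 CPM, and the intervals did not overlap in either library.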

How the results depend on the processing

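No paired analysis was possible because each genotype has 1 library. Of the class-wise counts under the alternatives, 176 stayed within 1.5 times the main count and 16 moved, and none reversed. After thinning to 2000 UMIs the class-specific channels numbered 2 in astrocytes (Kcnc4 and Kcnk1 lost), 1 in choroid plexus (Kcne2 lost), 2 in oligodendrocytes (Kcna6 and Kcnk5 lost) and 1 in pericytes (Kcnmb1 lost). At 5-fold over the next class, oligodendrocytes had 2 (the same 2 lost) and precursors 11 (Kcnc1, Kcnd3, Kcnip3, Kcnj3 and Kcnma1 among those lost). Pericytes had 4 with at least 10 UMIs or in the DTRneg library alone (Kcne4 and Kcnj12 added), the latter chosen after seeing the data, and 1 with a stricter filter on genes per cell (Kcnmb1 lost). With every class at no less than its level of 3 UMIs, also chosen after seeing the data, astrocytes had 2 (Kcnc4 and Kcnn3 lost) and precursors 9. With Ttr left out of all totals Kcnk1 was lost in astrocytes. For DTRpos against DTRneg, a 1.5-fold line gave 2 of 14 channels in astrocytes (Kcnc4 and Kcnt1), 2 of 32 in precursors (Kcnh5 and Kcnt2) and 1 of 2 in pericytes (Kcnmb1). A minimum of 20 UMIs over both libraries gave 2 in precursors (Kcnab3 and Kcnd1), and classes by cluster gave 1 in astrocytes (Kcna1). Apart from the floor of 3 UMIs, the share of all genes passing is not given for these settings. Their counts of channels therefore cannot be compared with all genes. Thinning and stricter minimums leave fewer UMIs; for other settings the cause was not tested. Of the single-gene ratios, 731 stayed and 13 moved. Depth limits the endothelium, where 20 UMIs were worth 20.3 and 30.6 CPM, and the DTRpos choroid plexus, where 3 UMIs were worth 14.5 CPM.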

Other observations

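Cells counted with no marker gate were of several kinds, and those with fibroblast markers could also hold 2 or more Pdgfra UMIs. Those with 2 or more UMIs of Dcx, a gene of young neurons, numbered 111 and 82 and had Kcnb2, a Kv2 channel, at 58.9 CPM (43.6 to 77.9) and 34.4 CPM (20.1 to 55.1). Precursors, where Kcnb2 was class-specific among the 6 classes only, had 20.3 and 20.7 CPM. Kcnh7 stood at 42.1 and 36.4 CPM in the Dcx cells, from 35 and 18 UMIs. The 57 and 49 cells with 2 or more UMIs of fibroblast markers had Kcnk2 at 223 CPM (161 to 301) and 157 CPM (98.3 to 237) and Kcne4 at 69.0 and 64.1 CPM, from 13 and 9 UMIs. Kcnh7 had no UMI in the fibroblast-marker cells of either library, and Kcne4 had none in the Dcx cells.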
